A study of Mus musculus with 22 samples.

Results

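Primary mouse hepatic stellate cell cultures given iron were compared with cultures given none, across all expressed genes, in the 7 stellate libraries whose deposited FPKM values (fragments per kilobase of exon, scaled to library size) sum to under 400000. These were iron libraries 1, 2 and 4 (n = 3) and control libraries 1, 2, 4 and 5 (n = 4), out of 10 stellate libraries and 22 libraries in the whole series. The FPKM sum grows when reads fall on short gene models. It lay between 297988 and 333718 in the 7 libraries kept and between 424253 and 503333 in control 3, iron 3 and iron 5, which were left out. Iron 4 was the library just inside the limit, at 333718, and iron 3 the one just outside, at 424253. The libraries left out were unlike one another. In control 3 the mean exonic length per count was 7.23 kb, and small RNA genes held 5.03% of counts. In iron 3 and iron 5 that length was 4.27 and 4.02 kb, against 5.16 to 5.69 kb in the 7 libraries kept. The libraries were chosen by these measured sums, which are given as a description only.

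All cells came from wild type C57BL/6 mice on chow. They were seeded in DMEM with 10% FBS and antibiotics for 24 h and then kept for 24 h with iron at 100 uM or with a treatment labelled placebo; the labels name neither the iron compound nor the placebo. No transgene or deletion was used, and the source of each library (animal, pool or culture) is not labelled, so that the p-values rest on library-to-library spread, part of which may be technical. The protocol text speaks of 4 biological replicates per group where 5 libraries per group are listed.

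Hepatic stellate cells are the pericytes of the liver sinusoid. At rest they store vitamin A, surround the endothelium and release ligands that act on hepatocytes and endothelium. In culture and in injury they turn into myofibroblasts that make collagen, contract and divide. Iron enters cells through transferrin receptor and other carriers, is stored in ferritin, leaves through ferroportin and is sensed by iron regulatory proteins that bind hairpins in the untranslated regions of several of these mRNAs. Kupffer cells, the resident macrophages of the sinusoid, take up red cells and recycle their iron, and they are isolated from the same non-parenchymal fraction as stellate cells.

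The 7 libraries held 14639862 (iron 4) to 32067635 (control 1) counts, of which 97.9% to 98.4% fell on protein-coding genes. Iron 4 differed from the other 6 in more than depth: the mean exonic length per count was 5.16 kb there and 5.57 to 5.69 kb in the others. Against the control mean, its median gene under 1 kb was 0.29 higher and its median gene over 8 kb 0.25 lower on the log2 scale, where iron 1 and iron 2 stayed between −0.03 and 0.08. The first principal component (62.9% of the variance) separated iron from control, and the second (14.0%) separated iron 4 from iron 1 and iron 2. Lists of mostly short genes are therefore given with and without iron 4.

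The label was checked against defining markers. Stellate transcripts were abundant in all 7 libraries. Col1a1, the main chain of type I collagen, stood at 3023, 2788, 3289 and 3133 CPM in the control libraries and 2766, 2561 and 2696 CPM in the iron libraries, and Pdgfrb, the receptor that marks pericytes, at 445, 412, 476 and 414 CPM in the control libraries and 284, 253 and 268 CPM in the iron libraries. Lrat, the enzyme that esterifies vitamin A and the marker most particular to stellate cells in liver, was low at 18.1, 23.2, 22.8 and 18.7 CPM in the control libraries and 4.46, 5.07 and 2.16 CPM in the iron libraries. Markers of 3 other liver cell types were present as well. Clec4f, a lectin of Kupffer cells, stood at 0.386, 0.408, 0.436 and 0.476 CPM in the control libraries and 72.9, 86.1 and 62.99 CPM in the iron libraries, and Stab2, a hyaluronan receptor of sinusoidal endothelium, at 2.03, 4.49, 2.22 and 4.399 CPM in the control libraries and 45.3, 41.5 and 36.5 CPM in the iron libraries. Alb, the serum albumin of hepatocytes, stood at 149, 114, 88.1 and 100.0 CPM in the control libraries and 82.4, 35.97 and 28.3 CPM in the iron libraries. Every iron library thus held more Clec4f and Stab2 and less Alb than every control library. Of the libraries left out, control 3 held no Clec4f count and iron 3 and iron 5 held 102.7 and 128 CPM (scaled over all 10). Stab2 stood at 6.87 CPM in control 3 and at 20.5 and 12.6 CPM in iron 3 and iron 5. For Alb the groups overlapped once these libraries were included (78.5 CPM in control 3, 79.96 in iron 1 and 70.2 in iron 3), and Apoa1 was lower in control 3 (8.66 CPM) than in iron 3 and iron 5 (23.5 and 14.9 CPM). In bulk RNA, fewer cells of a type and less RNA per cell cannot be told apart.

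Over all genes the cultures differed widely. Levels are given as CPM (counts scaled to a common library size, after TMM normalization), in the order control 1, 2, 4 and 5 and iron 1, 2 and 4, and a log2 change is iron minus control with its standard error from edgeR's quasi-likelihood test. Of 16287 genes tested, 2988 (18.3%) were higher with iron and 3224 (19.8%) lower at a Benjamini-Hochberg adjusted p under 0.05, 38.1% in either direction. More than 2-fold changes were called for 1010 higher and 822 lower genes, and more than 4-fold changes for 404 and 236. The median log2 change of all tested genes was 0.01, with 5th and 95th percentiles of −1.10 and 1.29. The groups did not overlap in CPM for 43.8% of tested genes, and 5920 of these 7129 genes passed the test. Scaling by total counts alone called 3747 genes higher and 2579 lower (38.8% in all), which raised the share of higher genes among calls from 48.1% to 59.2%.

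With all 10 libraries the same test called 628 genes higher (4.05%) and 523 lower (3.37%) of 15502, 7.42% in either direction. Of these 1151 genes, 1150 were also called in the 7 libraries, all 1150 in the same direction. The 7 libraries are part of the 10, so this overlap is not an independent check. Of the 6022 genes called in the 7 libraries that could be tested in the 10, 5376 kept their sign. The biological coefficient of variation was 0.11 in the 7 libraries and 0.50 in the 10. Against the 7, counts in the added control 3 lay on longer genes on average, and those in iron 3 and iron 5 on shorter ones. The part of this length difference in the changes with all 10 libraries was not tested. Counts with all 10 libraries are given beside part of the lists, and the other lists also held fewer calls there. Lower members went from 11 to 1 for YAP and TEAD targets and from 10 to 2 for class I genes. For chaperones and unfolded protein response genes they went from 13 to 2. Higher ribosome biogenesis factors went from 11 to 2. For efflux and lipoprotein genes 12 higher and 8 lower became 4 and 2, and for Toll-like receptors and adaptors 3 and 1.

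**Figure D1:**
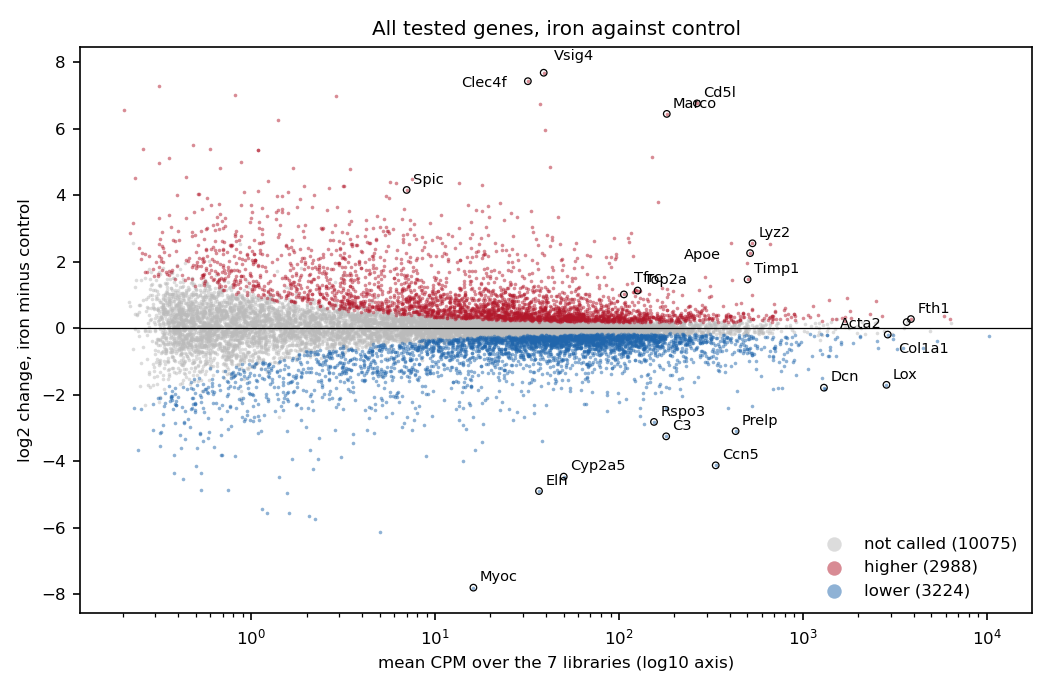
Mean expression (log10 axis, mean TMM-scaled CPM over the 7 libraries) against the log2 change, iron minus control, for all 16287 tested genes. Genes with an adjusted p under 0.05 are coloured red (2988 higher) or blue (3224 lower), the others grey, and labelled genes are those described in the text, from Vsig4 and Clec4f at the top to Myoc at the bottom.

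The largest increases were those of Kupffer cell genes. Vsig4, a complement receptor of Kupffer cells (chromosome X, 96247203 to 96293438, mm10), rose from 0.193, 0.634, 0.836 and 0.119 CPM in the control libraries to 86.7, 114 and 70.6 CPM in the iron libraries, a log2 change of 7.68 ± 0.29 (adjusted p = 1.24e-09). Clec4f (chromosome 6, 83644542 to 83656187) rose 173-fold (log2 change 7.43 ± 0.16, adjusted p = 1.02e-11). Both genes lay under 1 CPM in every control library, and the 3 iron libraries lay within 2-fold of one another. Cd5l, a secreted scavenger protein of tissue macrophages (chromosome 3, 87357881 to 87371073), stood at 4.82, 6.98, 7.99 and 2.81 CPM in the control libraries and 722, 683 and 429.9 CPM in the iron libraries, which made it one of the most abundant of the genes that rose. Marco, a scavenger receptor, rose from 4.85 ± 3.13 to 418 ± 70.1 CPM. The complement C1q chains C1qa, C1qc and C1qb rose 107-fold, 62.8-fold and 28.97-fold. Ccl6, a macrophage chemokine, rose from 9.53 ± 2.77 to 339.7 ± 80.2 CPM. Wfdc17, Clec12a, Lilra5 and Ear2, all myeloid genes, rose 19.6-fold, 20.9-fold, 20.9-fold and 27.6-fold.

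Of 19 tested Kupffer cell markers 18 were higher and 0 lower, with a median log2 change of 3.01 against 0.01 over all genes (10 higher with all 10 libraries). In the control libraries 8 of the 19 had a mean under 1 CPM, and in the iron libraries 0. Their summed level was 596 to 645 CPM in controls, most of it from Id3 (named after its values were seen) and the iron exporter Slc40a1, both well expressed in control cultures, and 1933 to 2558 CPM with iron. Spic, the transcription factor that haem induces in red pulp and bone marrow macrophages, rose from 0.868, 0.861, 0.763 and 0.912 CPM in the control libraries to 15.7, 16.4 and 13.5 CPM in the iron libraries. Cdh5, the endothelial cadherin that Kupffer cells also carry, rose 4.38-fold. Fcna, a ficolin, was the one Kupffer marker not called (0.21 ± 0.09).

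Of 31 general macrophage and monocyte genes 27 were higher and 0 lower (median 2.33; 22 higher with all 10 libraries), and their sum rose from between 1264 and 1762 CPM to between 3908 and 6008 CPM. Unlike the Kupffer genes, many of these were well expressed in controls. Lyz2, macrophage lysozyme, stood at 184, 191, 186 and 130.1 CPM in the control libraries and 1006, 1207 and 822 CPM in the iron libraries. Lgals3, the lectin galectin-3, rose from 236 ± 32.6 to 649.7 ± 103 CPM, and Cd36, a fatty acid and oxidised lipoprotein receptor, from 220.5 ± 35.6 to 859.7 ± 274 CPM. Spp1, osteopontin, rose from 131 ± 22.02 to 776 ± 92.00 CPM. Clec7a, the beta-glucan receptor, rose 13.8-fold, Msr1 10.1-fold, the Fc receptor gamma chain Fcer1g 6.78-fold and the lipopolysaccharide coreceptor Cd14 5.72-fold. Itgax, Cd74 and Maf did not pass (log2 changes −0.18 ± 0.32, 0.85 ± 0.44 and 0.17 ± 0.09). The leukocyte antigen Ptprc rose from 6.83 ± 0.401 to 33.8 ± 8.78 CPM. Of 5 neutrophil, 3 lymphocyte and 4 dendritic markers tested, 2, 1 and 1 were higher, each from a control mean under 1 CPM except Mmp8 (2.06 ± 0.696 to 3.95 ± 0.493 CPM). The dendritic member that was lower, Bst2, also an interferon response gene, made up most of that list's sum, which stood at 282 to 340.4 CPM in controls and 163 to 173 CPM with iron. Of 11 bile duct markers 3 were higher and 2 lower. Of 9 erythroid genes in the counts 8 were too low to be tested.

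Endothelial genes rose too. Of 36 tested sinusoidal endothelial markers 29 were higher and 4 lower (median 1.46; 14 and 2 with all 10 libraries). Stab2 rose 12.8-fold and Oit3, a secreted protein of sinusoidal endothelium, from 4.02, 4.94, 4.58 and 6.104 CPM in the control libraries to 56.6, 52.9 and 53.1 CPM in the iron libraries. Lyve1, a hyaluronan receptor, rose 7.96-fold, the endothelial transcription factor Sox17 6.77-fold, the guidance receptor Robo4 6.99-fold and the adhesion molecule Pecam1 3.598-fold. Rspo3, a Wnt amplifier that stellate cells and central vein endothelium both make, fell and is described with other stellate genes. The sum of the list moved little, from 1493 to 1584 CPM in controls to 1782 to 1833 CPM with iron, and the most abundant member in controls, Eng, an endothelial TGF-beta coreceptor named here after its values were seen, fell from 654 ± 42.3 to 434 ± 35.8 CPM.

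Some genes of phagocytosis, antigen presentation by class II and lipid mediators rose beside the macrophage genes. Of 26 Fc receptor, scavenger receptor and phagocytosis genes 15 were higher and 6 lower (median 1.99; 11 and 2 with all 10). The mannose receptor Mrc1 rose from 9.03 ± 0.856 to 67.3 ± 20.2 CPM, whereas the high-density lipoprotein receptor Scarb1 fell 2.25-fold and Axl, a receptor for dying cells that stellate cells carry, did not pass (1259 ± 52.6 to 1331 ± 30.4 CPM). Of 7 class II genes 5 were higher, and 1 with all 10 libraries. Apart from the protease Ctss (43.2 ± 5.42 to 154 ± 37.9 CPM) all had means under 10 CPM. Cd74 did not pass, as given above, and Ciita was too low to be tested. Among 25 Toll-like receptors and adaptors 12 were higher and 8 lower; Tlr13 and Tlr8, endosomal sensors of bacterial and other RNA in myeloid cells, rose 4.67-fold and 9.68-fold, and Nod1, a sensor also found in mesenchymal cells, fell 1.95-fold. Of 19 eicosanoid and phospholipase genes 10 were higher and 2 lower: the prostaglandin D synthase Hpgds rose from 2.79 ± 0.192 to 16.8 ± 4.34 CPM and thromboxane synthase Tbxas1 3.09-fold, and the prostaglandin E receptor Ptger2 fell 2.42-fold. How much of these changes the macrophage RNA carries was not tested.

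**Figure D2:**
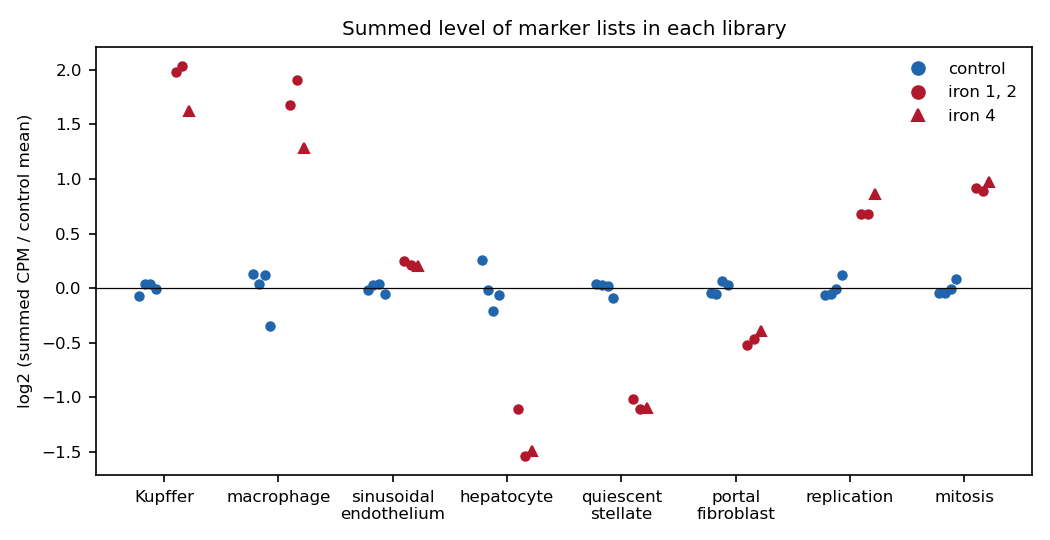
Summed level of each marker list in each of the 7 libraries, as log2 of the ratio to the mean of the 4 control libraries (y axis); blue points are control and red points iron libraries, and triangles mark iron 4. The Kupffer, macrophage, endothelial, replication and mitosis sums of all 3 iron libraries lie above all 4 controls, and the quiescent stellate, portal fibroblast and hepatocyte sums lie below.

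Hepatocyte transcripts were lower with iron. Of 28 tested hepatocyte markers 25 were lower and 0 higher (median −1.60; 3 lower with all 10 libraries), and their sum fell from between 515 and 713 CPM to between 206 and 277 CPM. The falls were unequal. Alb fell 2.28-fold, Apoa1, the protein of high-density lipoprotein, 3.05-fold, and Apob, that of low-density lipoprotein, 4.95-fold. Cyp2a5, a cytochrome P450, stood at 104, 68.5, 66.7 and 101 CPM in the control libraries and 8.75, 0.962 and 0.203 CPM in the iron libraries (chromosome 7, 26835305 to 26843548), and its iron libraries spread over more than 10-fold. Other hepatocyte or xenobiotic genes among the largest decreases were Gsta2 (14.3-fold), the carboxypeptidase Cpb2 (12.7-fold) and the glucuronosyltransferase Ugt2b34 (8.18-fold).

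Acute phase genes were lower, and complement genes moved in both directions. Of 14 acute phase genes 13 were lower and 1 higher (median −2.35; 5 lower with all 10). C3, the central complement component (chromosome 17, 57203970 to 57228136), stood at 307, 282, 303 and 281 CPM in the control libraries and 33.4, 31.6 and 26.5 CPM in the iron libraries, a log2 change of −3.26 ± 0.09 (adjusted p = 1.34e-10). Ptx3, a soluble pattern receptor made by stromal cells (chromosome 3, 66219910 to 66225805), stood at 776, 769, 842 and 825 CPM in the control libraries and 153, 155 and 163 CPM in the iron libraries. The groups did not overlap for either gene. Lcn2, which binds bacterial siderophores and so withholds iron from them, fell from 23.9 ± 7.51 to 1.397 ± 0.603 CPM, Lbp, the lipopolysaccharide-binding protein, from 28.6 ± 1.903 to 6.71 ± 1.44 CPM, and the protease inhibitor Serpina3n from 12.4 ± 2.15 to 2.51 ± 0.6896 CPM. Of 30 complement genes 11 rose and 14 fell (12 and 11 under total counts alone); those that rose by most were the C1q chains and receptors Vsig4 and C5ar1 (8.32-fold), and those that fell by most included C3 and the protease C1s1 (4.71-fold).

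Markers of quiescent stellate cells were lower. Of 28 tested, 25 were lower and 0 higher (median −1.13; 9 lower with all 10), the members not called being Angptl6, Ngfr and Gfap, with means of at most 2.08 CPM. Their sum fell from between 3075 and 3349.7 CPM to between 1523 and 1618 CPM. Reln, the secreted protein reelin (chromosome 5, 21884454 to 22344702), stood at 313, 322, 317 and 286 CPM in the control libraries and 97.9, 98.1 and 65.8 CPM in the iron libraries, and Cxcl12, a chemokine that retains leukocytes in tissue (chromosome 6, 117168535 to 117181367), at 1036, 1062, 1033 and 949 CPM in the control libraries and 426, 397 and 439.6 CPM in the iron libraries. Lrat fell 5.09-fold and Pdgfrb 1.63-fold, and the intermediate filament Des fell from 179.9 ± 8.91 to 116 ± 6.997 CPM but stood at 327.8 and 314.1 CPM in iron 3 and iron 5 (scaled over all 10), and with all 10 libraries its log2 change was 0.28 (adjusted p = 0.637).

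Some ligands that stellate cells release fell, while other ligands, described with the growth factors, rose or did not pass. Rspo3, which sustains the Wnt signal of central hepatocytes (chromosome 10, 29452416 to 29535867), stood at 267, 252, 234 and 228 CPM in the control libraries and 33.4, 31.6 and 39.5 CPM in the iron libraries, a log2 change of −2.82 ± 0.10 (adjusted p = 5.10e-10). Gdf2, the bone morphogenetic protein 9 that acts on liver endothelium (chromosome 14, 33941039 to 33947198), fell from 35.5, 37.5, 35.4 and 31.5 CPM in the control libraries to 6.14, 7.18 and 5.33 CPM in the iron libraries. Sod3, the extracellular superoxide dismutase, fell from 133 ± 4.68 to 23.5 ± 2.81 CPM. In vitamin A handling 14 of 29 genes were lower and 6 higher: the retinal dehydrogenase Aldh1a1 stood at 1078, 1092, 993 and 1043 CPM in the control libraries and 304, 304 and 290.3 CPM in the iron libraries, the lipid droplet coats Plin4 and Plin3 fell 4.18-fold and 1.58-fold, and a second retinal dehydrogenase, Aldh1a2, rose from 10.2 ± 1.28 to 18.9 ± 2.55 CPM.

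Portal fibroblast genes were split. Of 21 tested 13 were lower and 5 higher (6 and 3 with all 10). Myoc, myocilin, had the largest decrease of all named genes, from 21.6, 24.7, 26.6 and 39.95 CPM in the control libraries to 0.249, 0.03701 and 0 CPM in the iron libraries. Eln, elastin, stood at 38.7, 94.7, 46.03 and 71.3 CPM in the control libraries and 2.43, 1.48 and 2.43 CPM in the iron libraries, and the integrin-like Itgbl1 fell 4.97-fold. Col15a1, a collagen also of endothelial basement membrane, rose from 0.716 ± 0.117 to 11.6 ± 1.92 CPM and Cd34, shared with endothelium, from 30.8 ± 5.32 to 88.5 ± 7.396 CPM; Gsn and Mfap5 did not pass (252 ± 14.3 to 232 ± 22.02 CPM; 83.1 ± 6.595 to 83.8 ± 15.5 CPM). Of 13 mesothelial markers 5 were higher and 2 lower, and of 17 smooth muscle and pericyte markers 5 and 6.

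**Figure D3:**
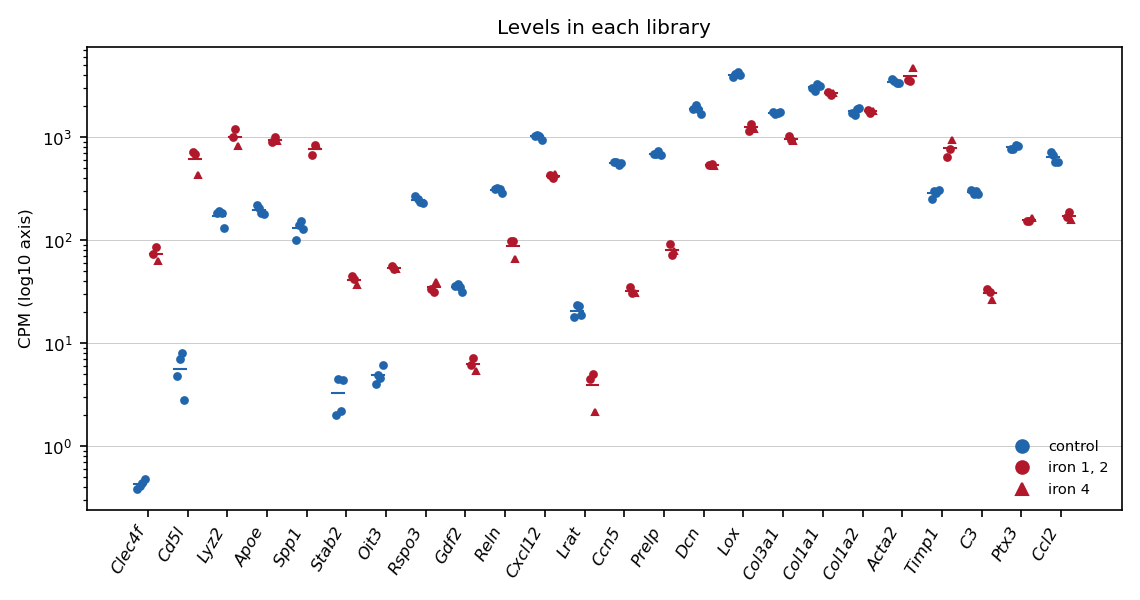
TMM-scaled CPM (log10 axis) of 24 genes in each of the 7 libraries, control in blue and iron in red, triangles for iron 4, short bars for group means. Kupffer and macrophage genes are higher in all iron libraries, Rspo3, Gdf2, Reln, Cxcl12, Prelp, Dcn, C3 and Ptx3 are lower, and Col1a1, Col1a2 and Acta2 lie close together.

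The matrix programme fell in part. Of 15 fibrillar and associated collagens 10 were lower and 2 higher (median −0.63; 5 lower with all 10). Col3a1, the chain of type III collagen (chromosome 1, 45311538 to 45349706), stood at 1762, 1662, 1701 and 1746 CPM in the control libraries and 1029.5, 942 and 912 CPM in the iron libraries, and Col14a1, which lies on the surface of fibrils (chromosome 15, 55307750 to 55520803), at 200.5, 203, 213 and 195 CPM in the control libraries and 36.9, 27.4 and 33.8 CPM in the iron libraries. Col5a1 and Col5a2, which set fibril diameter, fell 1.92-fold and 1.55-fold. The 2 chains of type I collagen moved little: Col1a2 did not pass (1783 ± 136 to 1789 ± 50.7 CPM; log2 change 0.00 ± 0.07) and Col1a1 had a log2 change of −0.19 ± 0.07 (adjusted p = 0.0418), a call lost when any 1 of 4 libraries was left out (adjusted p up to 0.184). Control and iron libraries overlapped for Col1a2.

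Small leucine-rich proteoglycans, which coat collagen fibrils, had the deepest fall of the matrix classes by median. Of 10 tested 8 were lower and 0 higher (median −1.49; 2 lower with all 10). Prelp (chromosome 1, 133910304 to 133921414) stood at 687, 691, 728 and 667 CPM in the control libraries and 91.2, 72.4 and 78.9 CPM in the iron libraries, and Dcn, decorin (chromosome 10, 97479609 to 97518143), at 1888, 2036, 1880.3 and 1690.2 CPM in the control libraries and 542, 551 and 530.5 CPM in the iron libraries. Lum, lumican, fell 5.34-fold and Ogn, osteoglycin, 2.41-fold, while biglycan, Bgn, did not pass (2646 ± 70.1 to 2383 ± 239.8 CPM). Among basement membrane genes 12 of 17 were lower and 2 higher. The laminin chains Lamc1 and Lamb2 fell 1.96-fold and 2.13-fold, and the higher members were Npnt (3.93 ± 0.482 to 40.5 ± 9.43 CPM) and Col15a1.

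Of 21 elastic fibre genes 11 were lower and 8 higher. Lox, lysyl oxidase, which cross-links collagen and elastin (chromosome 18, 52516067 to 52529867), was one of the most abundant genes that fell, from 3860.4, 4071, 4293 and 3994 CPM in the control libraries to 1159.8, 1358 and 1209.7 CPM in the iron libraries. Fbln5 and Emilin1, which build elastic fibres, fell 2.14-fold and 2.11-fold, and Ltbp1, which stores latent TGF-beta in the matrix, rose 1.93-fold. Of 17 matricellular genes 9 were lower and 5 higher. Ccn5 (chromosome 2, 163820861 to 163833146), a growth-restraining member of the CCN family, stood at 579, 579.7, 537 and 559.8 CPM in the control libraries and 34.99, 30.6 and 30.9 CPM in the iron libraries, the decrease of smallest adjusted p among the named genes (−4.13 ± 0.08, adjusted p = 9.44e-12). Ccn4 and Postn, periostin, fell 3.78-fold and 2.64-fold, whereas fibronectin, Fn1, and tenascin C, Tnc, did not pass (2399 ± 198 to 2719.8 ± 429 CPM; 1364 ± 82.3 to 1361 ± 243 CPM). Both were called higher without iron 4, with log2 changes of 0.32 and 0.16 (adjusted p = 0.0012 and 0.0282).

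Enzymes that make, cut or protect matrix changed in both directions. Of 19 collagen-modifying genes 10 were lower and 2 higher: the lysyl hydroxylase Plod2 fell 2.43-fold and the procollagen N-proteinase Adamts2 2.29-fold, and the collagen chaperone Serpinh1 did not pass (3217 ± 38.9 to 2868 ± 369 CPM). Of 31 matrix proteases and inhibitors 12 were higher and 11 lower. Adamts5, an aggrecan- and versican-cutting protease, stood at 1127, 1099, 1117 and 1105 CPM in the control libraries and 327, 330.4 and 298 CPM in the iron libraries, and Adamts1, of the same family, fell from 991 ± 40.6 to 277 ± 43.5 CPM. Timp1, the inhibitor of metalloproteinases raised in fibrotic liver (chromosome X, 20870166 to 20874735), stood at 249, 299, 286 and 308 CPM in the control libraries and 640.3, 775 and 949 CPM in the iron libraries, and Mmp12, the elastase of macrophages, at 260.0, 230.0, 231 and 151 CPM in the control libraries and 1287, 1525 and 948 CPM in the iron libraries. Timp2 fell 1.82-fold, and the plasminogen activator Plau rose 3.09-fold.

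Contractile genes were higher in part. Of 33 tested 12 were higher (36.4%) and 6 lower (18.2%), against 18.3% and 19.8% of all tested genes. The median was 0.09, and with all 10 libraries 4 were higher and 2 lower. Their sum stood at 34083 to 35433 CPM in controls and 35978 to 41216 CPM with iron, highest in iron 4. Acta2, the smooth muscle actin by which activated stellate cells are recognised (chromosome 19, 34241090 to 34255590), stood at 3634, 3507, 3375 and 3377 CPM in the control libraries and 3624, 3499 and 4694 CPM in the iron libraries, groups that overlap (log2 change 0.18 ± 0.09, adjusted p = 0.143). Without iron 2 it was called higher (adjusted p = 0.0325). Cnn1, calponin, rose from 33.3, 40.2, 32.3 and 32.6 CPM in the control libraries to 143, 138 and 174 CPM in the iron libraries, and Actg2, the enteric actin, from 69.5 ± 5.54 to 180.3 ± 37.5 CPM. Mylk, the kinase that starts contraction, fell 1.74-fold, and Myl9 and Tpm4 did not pass (−0.05 ± 0.09 and −0.01 ± 0.07). Of 29 integrins and matrix receptors 13 were lower and 9 higher, among them the collagen receptor Itga1 (2.89-fold lower) and the fibronectin receptor Itga5 (1.66-fold higher).

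Iron genes are described with the hairpins that iron regulatory proteins are known to bind. The letters below come from GENCODE M21 transcripts (mm10). Each is 30 bases that hold a C, 5 bases, the loop CAGTGN in capitals, and 5 bases that pair with the 5 before the loop, on the mRNA strand. In 5′ untranslated regions such a match was present in 31 of 20899 genes (0.148%) and in 3′ untranslated regions in 129 of 21022 (0.614%). In ferritin and ferroportin mRNAs the hairpin stands before the coding sequence, where the bound protein blocks translation, and in transferrin receptor mRNA after it, where the bound protein slows decay.
Fth1 5′ UTR, chr19:9982732-9982761, plus strand: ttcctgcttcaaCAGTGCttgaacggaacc
Ftl1 5′ UTR, chr7:45459778-45459807, minus strand: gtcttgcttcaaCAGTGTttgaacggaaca
Slc40a1 5′ UTR, chr1:45925464-45925493, minus strand: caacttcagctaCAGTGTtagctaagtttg
Tfrc 3′ UTR, chr16:32631219-32631248, plus strand: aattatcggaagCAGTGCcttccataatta
Tfrc 3′ UTR, chr16:32631598-32631627, plus strand: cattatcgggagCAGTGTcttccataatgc
Tfrc 3′ UTR, chr16:32631663-32631692, plus strand: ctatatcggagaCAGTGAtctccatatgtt
Tfrc 3′ UTR, chr16:32631710-32631739, plus strand: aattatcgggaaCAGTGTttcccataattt

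Tfrc, the transferrin receptor whose mRNA carries 4 of these matches (chromosome 16, 32608920 to 32632794), stood at 77.9, 75.3, 72.2 and 70.9 CPM in the control libraries and 141, 176 and 132 CPM in the iron libraries. It was higher in every iron library than in every control library (log2 change 1.01 ± 0.09, adjusted p = 2.14e-06), and with all 10 libraries the value was 0.46 (adjusted p = 0.536). Fth1, the ferritin heavy chain (chromosome 19, 9980598 to 9985098), stood at 3840.0, 3474, 3427 and 3469 CPM in the control libraries and 3981, 4411 and 4481 CPM in the iron libraries, a log2 change of 0.27 ± 0.07 (adjusted p = 0.00651). Ftl1, the ferritin light chain (chromosome 7, 45457944 to 45459884), stood at 3582, 3173, 3389 and 3109 CPM in the control libraries and 2688, 2648 and 3190.4 CPM in the iron libraries, groups that overlap, with a log2 change of −0.22 ± 0.08 (adjusted p = 0.0442), and the call was lost when any 1 of 5 libraries was left out (adjusted p up to 0.167). With all 10 libraries its log2 change was 1.37 (adjusted p = 0.156), opposite in sign. Both ferritin genes have processed copies that can share reads, so these counts are uncertain. Slc40a1, ferroportin, the known cellular iron exporter (chromosome 1, 45908068 to 45926523), stood at 171, 179.6, 168 and 163 CPM in the control libraries and 264, 313 and 192 CPM in the iron libraries, with iron higher (log2 change 0.59 ± 0.12, adjusted p = 0.00195). With all 10 libraries the log2 change of Slc40a1 was 0.07 (edgeR adjusted p = 0.924).

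Over the whole list of iron genes 12 of 45 were higher and 22 lower (median −0.19; 6 and 4 of 42 with all 10 libraries). Among importers other than Tfrc, the divalent metal carriers Slc39a14 and Slc39a8 fell, with log2 changes of −0.27 and −0.35 (the call of Slc39a14 was lost when any 1 of 6 libraries was left out, adjusted p up to 0.143), and Slc11a2 did not pass (61.7 ± 6.72 to 54.1 ± 2.68 CPM). Slc11a1, the carrier that pumps iron out of phagosomes in macrophages, rose from 26.9, 25.2, 22.4 and 17.1 CPM in the control libraries to 97.1, 95.4 and 63.7 CPM in the iron libraries. The ferroxidases that work with ferroportin fell. Cp, ceruloplasmin (chromosome 3, 19957054 to 20009145), stood at 233, 205, 189 and 176 CPM in the control libraries and 57.5, 41.2 and 38.4 CPM in the iron libraries, and Heph, hephaestin, at 116, 134, 124 and 111 CPM in the control libraries and 51.8, 57.9 and 48.5 CPM in the iron libraries. The iron reductase Steap4 fell 4.21-fold and Steap3 1.39-fold. The sensors Aco1 and Ireb2, which encode both iron regulatory proteins, did not pass (102 ± 0.942 to 93.4 ± 2.21 CPM; 85.99 ± 1.47 to 85.3 ± 8.54 CPM), whereas Fbxl5, which degrades the second of them when iron is high, fell from 63.6 ± 2.32 to 48.3 ± 3.77 CPM and Ncoa4, which carries ferritin to the lysosome, from 38.3 ± 1.63 to 27.8 ± 8.97 CPM (call lost when any 1 of 6 libraries was left out, adjusted p up to 0.124). Of the chaperones that load ferritin, Pcbp2 rose by 0.35 and Pcbp1 did not pass (−0.00 ± 0.07).

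Of the haem genes on the iron list, members fell, rose or did not pass. Hmox1, haem oxygenase, which frees iron from haem (chromosome 8, 75093621 to 75100589), stood at 4304, 4081, 4137 and 3943 CPM in the control libraries and 2530.0, 2742 and 2861 CPM in the iron libraries, a log2 change of −0.60 ± 0.07 (adjusted p = 1.03e-05). Slc48a1, which carries haem out of the lysosome, fell from 575 ± 43.5 to 353 ± 10.7 CPM, and Hmox2 did not pass (0.08 ± 0.08). The biliverdin reductase Blvra rose from 26.02 ± 1.97 to 40.9 ± 2.94 CPM, and Blvrb fell from 238 ± 11.5 to 184 ± 25.7 CPM, with a sign that turned with all 10 libraries (0.76). Cd163, the haemoglobin receptor of macrophages, rose from 0, 0.0906, 0 and 0.119 CPM in the control libraries to 6.39, 8.18 and 5.401 CPM in the iron libraries, so it was barely counted in control libraries. The plasma haem and haemoglobin binders Hpx and Hp, hepatocyte products, fell 5.73-fold and 4.09-fold, and Lrp1, the receptor for haem-haemopexin, fell from 1812 ± 125 to 1363 ± 336 CPM (call lost without any 1 of controls 1, 2 and 4). The haem exporter Flvcr1 did not pass (0.12 ± 0.11).

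In the pathway that sets hepcidin, Bmp6, the endothelial ligand that rises with iron in liver, fell from 72.1 ± 2.53 to 54.05 ± 4.53 CPM and Bmp2 rose from 6.68 ± 1.26 to 16.5 ± 0.546 CPM. Id1, a direct target of the pathway, rose from 43.6, 47.5, 44.1 and 45.6 CPM in the control libraries to 94.8, 80.9 and 101 CPM in the iron libraries. Id2 and Id3 were higher as well (log2 changes 0.98 and 0.27), the call of Id3 being lost without control 1. Smad6 and Smad7, also targets, did not pass (0.22 ± 0.09 and 0.10 ± 0.07). Smad6 was called higher without control 4 or without iron 2. Hamp, hepcidin itself, was counted at 0.482, 1.04, 0.545 and 0.198 CPM in the control libraries and 3.58, 5.07 and 2.57 CPM in the iron libraries; it shares sequence with a near-identical copy and stayed under 6 CPM. The coreceptors and regulators Hfe, Tfr2, Hjv and Tmprss6, best known from hepatocytes, fell, with log2 changes of −0.52, −1.92, −2.54 and −1.40, the last 3 from under 3 CPM; the call of Tmprss6 was lost without control 1, control 4 or iron 2. Mitochondrial iron import changed little, with Slc25a37 0.23 higher on the log2 scale (call lost when any 1 of 4 libraries was left out, adjusted p up to 0.0817) and Slc25a28 not called (0.14 ± 0.09). Of 32 genes that build iron-sulphur clusters or haem, 11 were lower and 3 higher, a balance that turned under total counts alone (6 lower and 7 higher), and with all 10 libraries 0 were lower and 0 higher. The calls were led by the porphyrin carrier Abcb6 (2.103-fold lower), Alas1, the first enzyme of haem synthesis (1.35-fold lower), and the cluster scaffold Iscu (1.41-fold lower).

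**Figure D4:**
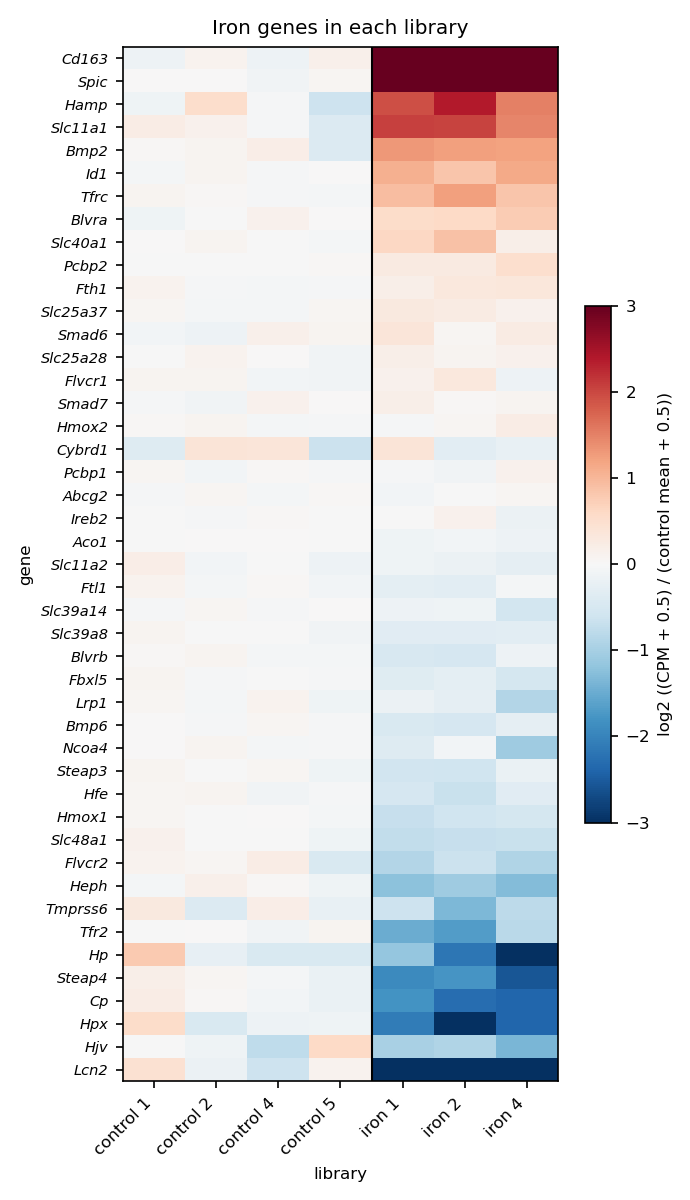
The 45 tested iron genes (rows, ordered by log2 change) in the 7 libraries (columns), coloured by log2 of the CPM ratio to the mean of the 4 control libraries, with 0.5 CPM added to both and colours capped at 3 in either direction. The 3 iron columns share their direction for the genes at the top (Cd163, Spic, Hamp) and at the bottom (Lcn2, Hpx, Cp), and the middle rows, ferritins and sensors among them, are pale.

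Antioxidant genes were lower on the whole. Of 40 NRF2 targets and antioxidant enzymes 26 were lower and 6 higher (median −0.33; 6 and 1 with all 10). Gstm1, a glutathione transferase (chromosome 3, 108012255 to 108017973), stood at 2057, 2011, 1819.7 and 1769.8 CPM in the control libraries and 533, 494 and 591 CPM in the iron libraries and had the highest FPKM of the genes that fell at least 2-fold. Ephx1, microsomal epoxide hydrolase, fell 2.08-fold, Osgin1 2.22-fold and Mgst1 2.003-fold, while G6pdx and Prdx3 did not pass (−0.05 ± 0.06 and −0.05 ± 0.07). Among 23 ferroptosis regulators 8 were higher and 8 lower (10 and 5 under total counts alone, 0 and 1 with all 10 libraries). The cystine carrier Slc7a11 fell from 57.7 ± 8.16 to 34.7 ± 4.200 CPM, Gch1, which makes the antioxidant tetrahydrobiopterin, from 27.2 ± 2.02 to 12.2 ± 4.68 CPM, and Acsl4, which loads polyunsaturated lipids, rose from 106 ± 8.36 to 156 ± 17.9 CPM. The phagocyte oxidase Cybb rose 6.45-fold. Both cytosolic metallothioneins, Mt1 and Mt2, did not pass (131 ± 6.84 to 114 ± 12.4 CPM and 46.9 ± 3.46 to 43.3 ± 9.05 CPM). Both were called lower without iron 4 (edgeR adjusted p = 0.00245 and 0.00775). Of the 13 genes of that list with zinc transporters 10 were lower, 7 under total counts alone and 0 with all 10 libraries.

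Autophagy genes and lysosomal genes were lower in part. Of 32 autophagy genes 20 were lower and 0 higher (median −0.30; 3 lower with all 10). Sqstm1, the p62 cargo receptor (chromosome 11, 50199366 to 50210827), stood at 1992, 1863, 1848 and 1773 CPM in the control libraries and 1013, 1053 and 1082 CPM in the iron libraries, and Map1lc3b and Gabarapl1, which coat autophagosomes, fell 1.73-fold and 1.56-fold. Of 45 lysosomal genes 24 were lower (53.3%), 9 higher (20%) and 12 not called, against 19.8% lower and 18.3% higher over all tested genes. With all 10 libraries 3 were lower and 3 higher. The summed levels overlapped between the groups (13807 to 15242 CPM in controls and 13670.0 to 15735 CPM with iron). The higher ones were led by the macrophage genes Cd68 (39.04 ± 8.05 to 172 ± 6.41 CPM) and Ctss, and the lower ones by acid alpha-glucosidase Gaa (1.798-fold), Tpp1 (1.63-fold) and sulphamidase Sgsh (1.93-fold). Of 24 chaperones and unfolded protein response genes 13 were lower and 0 higher, Herpud1 by most in p (1.65-fold), and Calr and Hsp90b1 did not pass (−0.13 ± 0.08 and 0.04 ± 0.07).

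Cholesterol synthesis fell as a group. Of 28 genes listed for synthesis and its control by SREBP2, 24 were lower and 1 higher (median −0.95, and 9 lower with all 10). The 1 higher was Mylip, a ubiquitin ligase and not an enzyme of synthesis, described below with the efflux genes. Insig1, which holds the SREBP complex back when sterols are high, stood at 81.3, 86.8, 78.5 and 72.4 CPM in the control libraries and 32.00, 31.8 and 27.7 CPM in the iron libraries. The enzymes Msmo1, Sqle, Lss and Nsdhl fell 2.62-fold, 2.38-fold, 2.27-fold and 2.32-fold, and Ebp, Pmvk and Scap did not pass (−0.15 ± 0.10, −0.31 ± 0.12 and −0.19 ± 0.08). The letters TCACNCC of the sterol element were found on either strand in 4 of 20 promoters of the list (20%) and in 16.3% of the 11453 promoters of tested genes, a share close to the background. Of 29 fatty acid synthesis and storage genes 15 were lower and 2 higher, with the desaturases Fads2 2.17-fold and Fads1 1.59-fold lower, Pparg 2.605-fold higher and the desaturase, Scd1, not called (128 ± 8.48 to 139 ± 5.32 CPM).

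Genes of cholesterol efflux and lipoproteins divided. Of 21 tested 12 were higher and 8 lower. Apoe, apolipoprotein E, which macrophages release in quantity (chromosome 7, 19696109 to 19699188), stood at 219, 206, 184 and 179.8 CPM in the control libraries and 908, 1011 and 909 CPM in the iron libraries. Abcg1, the sterol exporter, rose from 5.83 ± 1.31 to 24.2 ± 5.31 CPM, Soat1, which esterifies cholesterol for storage, 2.105-fold, and Mylip, a ubiquitin ligase, 2.14-fold. The very low-density lipoprotein receptor Vldlr fell 2.12-fold. These genes rose in cultures in which macrophage markers rose, and the part of macrophage RNA in their change was not tested.

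Growth factor genes changed in both directions. Of 48 growth factors and receptors of mesenchyme 18 were higher and 14 lower (median 0.18). Vegfd, a lymphatic growth factor (chromosome X, 164373378 to 164402650), stood at 253, 289, 258 and 299.7 CPM in the control libraries and 50.2, 52.8 and 53.3 CPM in the iron libraries. Igfbp3, which binds insulin-like growth factors, fell from 601, 621, 606 and 565 CPM in the control libraries to 129, 132 and 80.4 CPM in the iron libraries, and Igf1 itself rose from 39.5, 42.00, 40.04 and 35.8 CPM in the control libraries to 151, 179 and 132 CPM in the iron libraries. Gas6, the ligand of Axl, fell from 271 ± 30.9 to 76.8 ± 11.2 CPM, and Hbegf, an epidermal growth factor receptor ligand, rose from 13.01 ± 0.742 to 43.3 ± 2.61 CPM. Vegfa did not pass (168 ± 10.7 to 168 ± 14.2 CPM; log2 change −0.00 ± 0.08). Among bone morphogenetic proteins 17 of 33 genes were lower and 8 higher: Gdf6 fell from 204 ± 7.27 to 72.7 ± 7.72 CPM, Bmp4 and Bmp5 3.02-fold and 2.93-fold, Bmp3 from 8.75 ± 2.47 to 0.105 ± 0.111 CPM, and Id2 rose 1.97-fold.

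The TGF-beta list, with ligands, receptors and targets, had 9 of 28 members higher and 10 lower (10 and 7 under total counts alone, 12 and 9 without iron 4). Inhbb, the beta B chain of activin, rose from 16.2, 17.9, 23.1 and 24.5 CPM in the control libraries to 93.9, 84.8 and 82.4 CPM in the iron libraries and Ltbp2 from 179 ± 27.7 to 396 ± 34.9 CPM, while Tgfb2 fell from 80.4 ± 6.59 to 45.3 ± 4.26 CPM and the coreceptor Tgfbr3 2.28-fold. Tgfb3 did not pass (−0.06 ± 0.08). Of 22 YAP and TEAD targets 11 were lower and 2 higher: F3, tissue factor, fell from 1016 ± 36.03 to 647 ± 28.3 CPM, Lats2, a kinase that restrains YAP, 1.44-fold, and Ankrd1 rose 1.47-fold. Of 30 Wnt genes 11 were lower and 9 higher, with the feedback inhibitors Nkd2 and Nkd1 2.51-fold and 2.17-fold lower and Wnt2, a ligand of sinusoidal endothelium, higher (4.33 ± 0.819 to 11.4 ± 0.686 CPM).

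Chemokines moved in both directions. Of 27 chemokines and receptors 14 were higher and 8 lower (8 and 8 with all 10). Those that fell included the monocyte attractants Ccl2, at 725, 672, 576 and 575 CPM in the control libraries and 169, 189 and 158 CPM in the iron libraries, and Ccl7, at 241, 243, 232 and 227 CPM in the control libraries and 64.99, 76.2 and 69.5 CPM in the iron libraries. Cxcl5, a neutrophil attractant, fell 4.06-fold, Ccl20 10.7-fold and Ackr3, the scavenging receptor for the Cxcl12 protein, 10.4-fold. Those that rose included Ccl6 and Ccl3 (2.14 ± 0.392 to 22.3 ± 3.901 CPM). Of 41 cytokine genes 18 were lower and 11 higher. Il6st, the receptor chain shared by a family of cytokines, fell from 943 ± 41.05 to 466 ± 82.1 CPM and Osmr, the oncostatin M receptor, from 136 ± 6.27 to 75.3 ± 3.93 CPM, whereas Il1a, Il1rn and Tnf rose 8.97-fold, 5.88-fold and 7.47-fold, each from under 7 CPM.

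Interferon response and class I antigen presentation genes were lower in part. Of 32 type I interferon response genes 19 were lower and 1 higher (median −0.47; 3 and 1 with all 10, and 20 and 4 without iron 4). Ifit3 stood at 40.2, 40.4, 43.2 and 31.4 CPM in the control libraries and 8.66, 7.59 and 4.86 CPM in the iron libraries, Stat2 fell 1.88-fold and Oasl1 rose 1.704-fold. Bst2, tetherin, fell from 289 ± 25.7 to 144 ± 4.61 CPM, but with all 10 libraries its log2 change was 0.06 (adjusted p = 0.939). Of 13 interferon-gamma-inducible GTPases 9 were lower and 1 higher, Gbp2 from 61.3 ± 5.81 to 25.5 ± 2.63 CPM. Of 17 class I genes 10 were lower and 1 higher: H2-K1, a class I heavy chain, stood at 378, 396, 376 and 351 CPM in the control libraries and 184, 183 and 183 CPM in the iron libraries, H2-D1 fell 1.44-fold and the loading factor Tapbp 2.06-fold, and Psme1 and Psmb10 did not pass (−0.07 ± 0.09 and −0.01 ± 0.09).

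**Figure D5:**
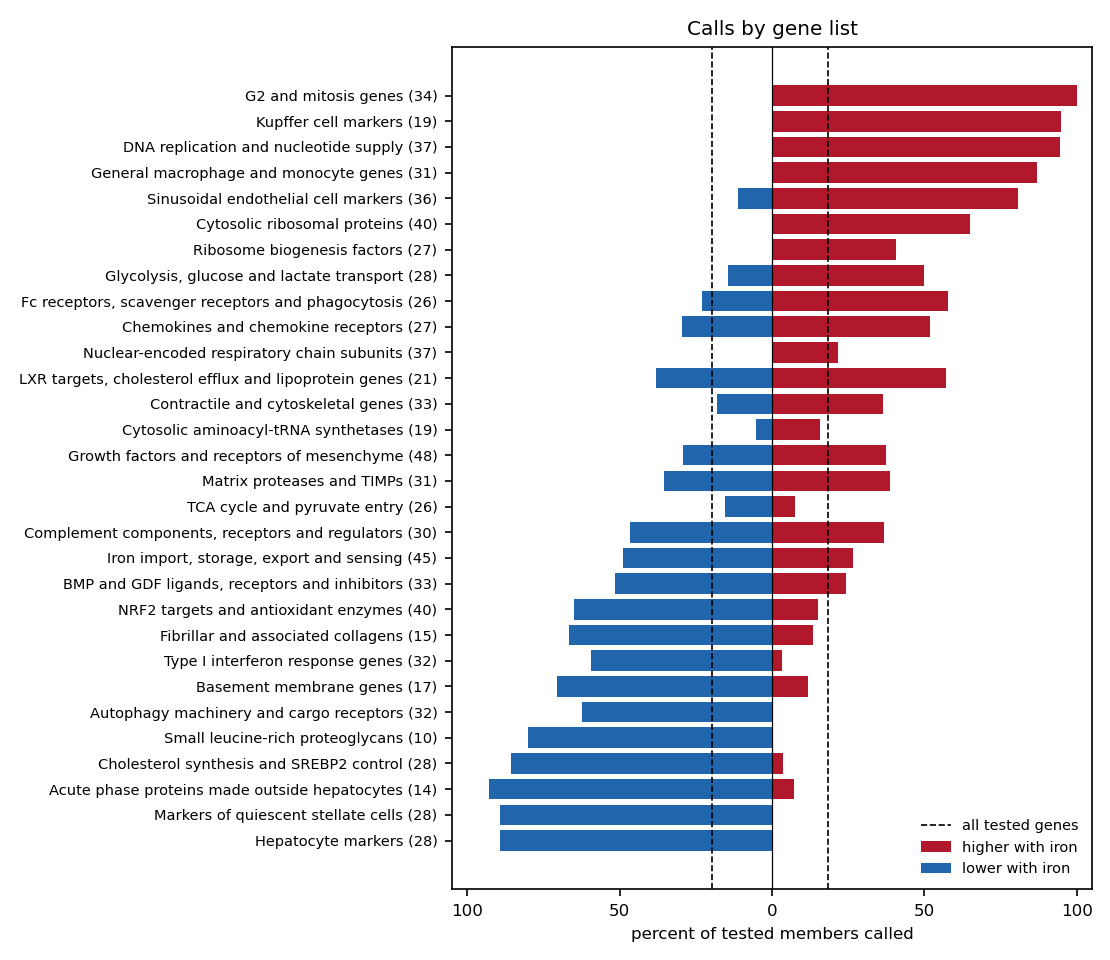
Percentage of tested members of 30 gene lists that were called higher (red, to the right) or lower (blue, to the left) with iron, with the number tested after each name. Dashed lines mark the background over all 16287 tested genes, 18.3% higher and 19.8% lower; the mitosis, replication, Kupffer and macrophage lists extend furthest right, and the acute phase, quiescent stellate and hepatocyte lists furthest left.

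Cell cycle genes were higher with iron. All 34 tested G2 and mitosis genes and 35 of 37 replication and nucleotide genes were higher, with medians of 0.96 and 0.68. With all 10 libraries 14 and 14 were higher and none lower, and without iron 4 all 34 and 35 were higher. The summed replication genes stood at 1324 to 1505 CPM in controls and 2215 to 2513 CPM with iron. Top2a, the topoisomerase of dividing cells (chromosome 11, 98992943 to 99024189), stood at 80.7, 75.9, 86.00 and 91.99 CPM in the control libraries and 187, 178 and 184 CPM in the iron libraries, and Rrm2, the iron-containing subunit of ribonucleotide reductase (chromosome 12, 24708241 to 24714146), at 72.95, 71.99, 79.7 and 98.6 CPM in the control libraries and 168, 172 and 192 CPM in the iron libraries. Tk1, thymidine kinase, rose 2.63-fold, Uhrf1, which copies DNA methylation, 1.97-fold, Ccnb1, the mitotic cyclin, 2.09-fold and Cdc20, which starts anaphase, 2.03-fold. Fen1 and E2f2 did not pass (0.35 ± 0.16 and 0.02 ± 0.27). Of 28 p53 targets 11 were lower and 2 higher (8 and 5 under total counts alone): Gdf15 fell from 138 ± 7.39 to 76.97 ± 5.29 CPM, Fas 2.14-fold, and the cell cycle inhibitor Cdkn1a did not pass (626 ± 13.5 to 579 ± 17.5 CPM).

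The E2F site is the promoter element by which replication genes are switched on together, and it is shown for Mcm5, a subunit of the replicative helicase that rose 1.93-fold. The letters TTTGGCG or TTTCGCG were found on either strand in 11 of 31 replication gene promoters (35.5%), 1 of 28 mitosis gene promoters (3.57%) and 3.89% of the 11453 promoters of tested genes. The promoter of Mcm5 below is the RefSeq window from 250 bases before to 50 after the start (GRCm38.p6); capitals mark 2 overlapping matches, 1 on each strand, from position 98. A match describes the letters and is not a measured binding site.
Mcm5 promoter, chr8:75109259-75109558, plus strand: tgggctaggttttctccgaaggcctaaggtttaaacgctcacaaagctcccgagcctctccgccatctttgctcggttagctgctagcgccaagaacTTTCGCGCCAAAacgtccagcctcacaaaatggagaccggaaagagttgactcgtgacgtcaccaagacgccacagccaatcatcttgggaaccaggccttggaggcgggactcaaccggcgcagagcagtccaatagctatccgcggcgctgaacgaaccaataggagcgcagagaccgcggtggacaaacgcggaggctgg

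Ribosomal protein genes were slightly higher. Of 40 tested 26 were higher and 0 lower, with a median log2 change of 0.30. Without iron 4, 21 were higher. With all 10 libraries 1 was higher, although the median log2 change was 1.25. Scaled over all 10, their sum was 4114 CPM in control 3, 50883 CPM in iron 3 and 62235 CPM in iron 5. Their gene models are short, and their sum stood at 16068 to 16810.0 CPM in controls, 17921 and 18337 CPM in iron 1 and iron 2 and 23564 CPM in iron 4, the library with more counts on short genes; the part of that difference in their change was not tested. Rpl3 rose from 298 ± 9.04 to 388 ± 48.7 CPM. Of 27 ribosome biogenesis factors 11 were higher and 0 lower, among them nucleolin, Ncl (1.35-fold), and nucleophosmin, Npm1 (1.52-fold). Of 28 glycolysis genes 14 were higher and 4 lower: lactate dehydrogenase Ldha rose from 604 ± 7.65 to 849 ± 48.9 CPM, the myeloid hexokinase Hk3 3.44-fold, and the abundant Aldoa and Gpi1 did not pass (−0.08 ± 0.07 and −0.06 ± 0.07).

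Genes of energy metabolism and tRNA charging were read against the background of 18.3% higher and 19.8% lower. Of 26 TCA cycle genes 2 were higher and 4 lower (7 and 4 under total counts alone, where 23% of all genes were higher and 15.8% lower), with citrate synthase Cs not called (340.1 ± 9.76 to 339 ± 26.4 CPM) and the mitochondrial isocitrate dehydrogenase Idh2 1.74-fold higher. Of 37 nuclear respiratory chain genes 8 were higher and 0 lower (5 and 1 without iron 4, 14 and 0 under total counts alone). Of 11 genes of the mitochondrial genome 3 were lower (6 without iron 4), mt-Co1 from 10997 ± 173 to 9268 ± 1182 CPM, a call lost when any 1 of 5 libraries was left out (adjusted p up to 0.104). Of 19 tRNA synthetases 3 were higher and 1 lower. HIF subunits and targets moved in both directions, with 10 of 29 lower and 5 higher: the vasodilator peptide Adm fell from 551, 559, 551 and 535 CPM in the control libraries to 253, 244 and 294 CPM in the iron libraries, Hif1a and Epas1 fell 1.76-fold and 1.94-fold, and Slc2a1 did not pass (96.5 ± 6.17 to 108 ± 2.85 CPM). Of 30 integrated stress response genes 10 were higher and 7 lower, the serine synthesis enzyme Psat1 rising from 130.4 ± 4.03 to 283 ± 38.9 CPM and Atf4 not called (397 ± 9.14 to 451 ± 50.2 CPM).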

How the data were processed

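RNA of cultured mouse hepatic stellate cells was sequenced by the submitters, whose protocol text names a TruSeq Small RNA kit although the deposited values cover genes of all kinds. Per the submitters' processing notes, reads were handled with cutadapt 1.9.1 and HISAT2 2.0.1 on mm10. Which program counted reads, on which gene models and with which strandedness is not given in the sources used here; antisense, overlapping and near-identical genes are therefore uncertain. The authors deposited raw counts per gene and, beside them, FPKM values, which were used to choose the libraries, to rank genes for naming and in 2 alternatives.

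The deposited counts were tested with edgeR 4.0.16 in R 4.3.3: filterByExpr, TMM factors and the quasi-likelihood test over 16287 genes, called at a Benjamini-Hochberg adjusted p under 0.05. Alternatives used limma 3.58.1, DESeq2 1.42.0, other factors, no filter, all 10 libraries, a replicate block and each library left out. The procedure was tested on simulated data. Library totals ran from 14639862 to 32067635 counts, and counting error is smallest for abundant genes. Libraries within a group differed by more than counting noise in every pair (chi-square per degree of freedom 5.59 to 24.9). Columns of per-sample values that matched no sample numbered 0.

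Genes named were the iron genes, the 12 largest changes in each direction among called, non-overlapping genes with a mean FPKM of at least 5, the 10 most abundant genes changed at least 2-fold in each direction, up to 6 members of smallest p in each list, and members that did not pass, abundant ones first. Predicted genes were left out, and some genes are not reported here. The members and lists were chosen with earlier results of these data known. Id3 and Eng were named after their values were seen.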

Additional observations from a re-analysis of the deposited data

Results flagged for a closer look

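In the control group of 4 libraries, Dixon's test asked for each of the 282 named genes whether the highest or lowest CPM stood apart from the other 3, and 11 genes (3.9%) did so. Chance flags about 1 in 20 groups. The 3 iron libraries are too few for this test. In control 5, Lyz2, macrophage lysozyme, stood at 130.1 CPM, below the 184 to 191 CPM of the other 3 control libraries. Cd36, the lipid receptor, stood at 168 CPM, below the 234 to 246 CPM of the other 3 control libraries. Eng, the endothelial coreceptor, stood at 591 CPM, below the 672 to 678 CPM of the other 3 control libraries. Hk3, the myeloid hexokinase, stood at 12.9 CPM, below the 18.9 to 19.98 CPM of the other 3 control libraries. In control 1, Fth1, the ferritin heavy chain, stood at 3840.0 CPM, above the 3427 to 3474 CPM of the other 3 control libraries. Hp, haptoglobin, stood at 17.1 CPM, above the 6.98 to 8.15 CPM of the other 3 control libraries. Mylip, a ubiquitin ligase, stood at 8.01 CPM, above the 6.34 to 6.54 CPM of the other 3 control libraries. Rpl3, a ribosomal protein, stood at 311 CPM, above the 292 to 294 CPM of the other 3 control libraries. In control 2, Cnn1, calponin, stood at 40.2 CPM, above the 32.3 to 33.3 CPM of the other 3 control libraries. Ephx1, the epoxide hydrolase, stood at 456 CPM, above the 442 to 444 CPM of the other 3 control libraries. In control 4, Mt1, metallothionein, stood at 121 CPM, below the 133 to 136 CPM of the other 3 control libraries.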

How the results depend on the processing

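The choice of libraries had the largest effect of the settings tried: with all 10, 628 genes were higher and 523 lower. Under RLE factors, total counts alone, no expression filter, DESeq2, voom with quality weights and limma on log2(FPKM + 1) or log2(FPKM + 0.1), both counts stayed within 1.5 times of 2988 and 3224, with 79.3% to 99.5% of the calls shared and all shared calls in the same direction. Leaving out 1 library gave 2514 to 3299 higher and 2555 to 3327 lower genes. Deviations of same-numbered control and iron libraries from their group means correlated at −0.01, 0.008 and −0.051. Pairs with unlike numbers lay between −0.055 and 0.057. With the source of each library unlabelled, these values cannot settle whether the numbers mark pairs. A replicate block over numbers 1, 2 and 4 called 2415 higher and 2724 lower. Total counts alone and limma on FPKM raised the share of higher genes among calls from 48.1% to 59.2%, 58.9% and 58.7%. For the 282 named genes, 4283 of 4494 values under alternatives kept direction and side of the threshold (a gene called in neither fit counts as kept), 151 lost the call and 55 gained it; 82 of the losses came with all 10 libraries. With all 10 the log2 change turned sign for 4 of the 229 genes called in the 7 libraries and present in both fits, Des (0.28), Ftl1 (1.37), Blvrb (0.76) and Bst2 (0.065), none called there, and for 23 of the 51 named genes called in neither. Leaving out 1 library took Tnc from −0.073 to 0.16, the latter without iron 4 and called. The causes were not tested. Of 231 called named genes 10 lost the call without some 1 library: Id3 without control 1 and Mmp8 without iron 2, beside the 8 given with their values in the text. Of 51 not called, 14 were called without iron 4, namely Bgn, Calr, Ebp, Fcna, Flvcr1, Fn1, Gsn, Maf, Mt1, Mt2, Myl9, Pmvk, Serpinh1 and Tnc. List counts without iron 4 were added after seeing the data. The 3 iron libraries, the shallower iron 4 and genes under 1 CPM limit the precision.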

Other observations

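Some abundant genes that changed at least 2-fold belong to none of the lists above. Prnp, the cellular prion protein, a membrane protein of many cell types (chromosome 2, 131909928 to 131938429, mm10), stood at 808, 833, 811 and 793 CPM in the control libraries and 278, 311 and 302 CPM in the iron libraries, a log2 change of −1.45 ± 0.07 (edgeR adjusted p = 6.41e-09). All 4 control values lay within 41 CPM of one another. Selenow, a selenoprotein, stood at 96.8, 95.6, 91.3 and 123 CPM in the control libraries and 193, 186 and 239 CPM in the iron libraries, and Sprr1a, a small proline-rich protein, at 166, 90.4, 66.2 and 114 CPM in the control libraries and 223, 227 and 312 CPM in the iron libraries. Both have short gene models, and iron 4 had the highest value of each.

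Fatty acid oxidation and clock genes were also measured. Of 31 fatty acid oxidation genes 14 were lower and 2 higher, against backgrounds of 19.8% and 18.3% of tested genes. Under total counts alone 8 were lower and 2 higher, against backgrounds of 15.8% and 23%. Cpt1a, which admits fatty acids to mitochondria, fell from 287 ± 17.3 to 189.9 ± 27.7 CPM, and Pdk4 did not pass (197 ± 11.2 to 193 ± 27.1 CPM). Of 19 clock genes 7 were lower and 1 higher, Rora from 31.7 ± 3.27 to 13.05 ± 2.75 CPM. Of 18 heat shock genes 6 were lower and 4 higher, with Hspa8 not called (1497 ± 38.3 to 1479.9 ± 127 CPM).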
